A study of Homo sapiens with 8 samples.

Results

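Amino acid transporters of the solute carrier (SLC) families were examined in LN229, an established human glioblastoma cell line. All 32 listed genes had a row with exactly 1 gene symbol in the array table, out of 33458 genes so identified. SLC38A9 had 3 such rows, and its brightest row on average was used. Arrays came from 4 samples titled 23 Pa CSS (compressive solid stress), in which stainless-steel discs on an agar layer pressed on cells grown on a Transwell membrane for 18 h, and from 4 samples titled no CSS, with neither agar nor discs. Cell line, medium and culture time were shared by both, so that a difference compares agar and discs together with neither. Replicates are not described as separate cultures, and the p-values then measure only the spread between these samples.

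Titles and other labels disagree for all 8 samples: the source name and description of each state the condition opposite to its title. Groups follow the titles here, and differences in log2 array signal subtract the mean titled no CSS from the mean titled 23 Pa CSS (n = 4 each). Should the source names be right, "higher" and "lower" change places throughout. A gene rose or fell where limma, fitted over 135750 transcript clusters, gave a Benjamini-Hochberg adjusted p under 0.05.

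Amino acid transporters carry the building blocks of protein, and also glutamine, glutamate and cystine, across the cell and lysosomal membranes. Several work as pairs: the glycoprotein SLC3A2 (CD98 heavy chain) brings a light chain of the SLC7 family to the surface, and the SLC7A5 light chain (LAT1) then exchanges leucine and other large neutral amino acids for glutamine. Leucine and arginine inside the cell are sensed at the lysosome by the kinase complex mTORC1, and shortage raises many transporter genes through the transcription factor ATF4. Glioma cells are known for cystine uptake and glutamate release through SLC7A11.

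Column medians lay between 4.56 and 4.65, and Pearson correlations between arrays over genes were 0.976 to 0.993. The 23 antigenomic background rows averaged 4.18 ± 0.0528 in samples titled 23 Pa CSS and 4.03 ± 0.126 in those titled no CSS (SD, n = 4 each, exact permutation p = 0.0286, two-sided, the smallest that 70 assignments allow). The 8 hybridisation control rows averaged 9.18 ± 0.113 in samples titled 23 Pa CSS and 8.75 ± 0.236 in those titled no CSS (SD, n = 4 each, exact permutation p = 0.0286). Control signal thus moved with the titles by 0.144 and 0.43, and the part of array scaling in the results below was tested only by the alternative scalings given. Of the glial markers, VIM, NES, CD44, SOX2 and S100B averaged over 10 in both groups, whereas GFAP, OLIG2 and AQP4 lay within 1 log2 unit of the antigenomic mean. Of 15 markers of leukocytes, endothelium, epithelium, neurons, myelin, stroma and blood, 9 lay within that margin. The summed signal of all 15 on the linear scale was 1405 to 1637 in the samples titled 23 Pa CSS and 1521 to 1787 in those titled no CSS. This sum came mainly from COL1A1 and SNAP25, with mean log2 signal of 9.94 and 7.83, and hardly registers the dimmer markers. By limma 0 of the 15 passed, and 3 (PTPRC, SNAP25 and MBP) had p under 0.05 before adjustment. The leukocyte marker PTPRC averaged 5.59 in samples titled 23 Pa CSS and 4.83 in those titled no CSS (limma adjusted p = 0.0505). Over all 8 samples it lay 1.11 over the antigenomic mean. The other leukocyte markers listed, CD14 and AIF1, lay within 1 log2 unit of that mean. They differed by -0.08 and 0.40 (limma adjusted p = 0.88 and 0.422). The part of other cell types in the results was not tested. The arrays averaged over all cells of a culture, so that fewer cells with a transcript and less of it per cell cannot be told apart.

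Of the 32 transporters, 3 rose and 0 fell: SLC7A5, SLC3A2 and SLC1A4. Among all genes 1.36% rose and 0.962% fell by the same rule, and the 3 correspond to 9.38% of the members. A further 7 had an unadjusted p under 0.05, which makes 10 in all (31.2%, against 19.3% of all genes). In the direction of the titles, 6 of these 10 were higher and 4 lower. The groups did not overlap for 5 members that were higher and for 0 that were lower, where 9.11% and 4.58% of all genes did not overlap in these directions. The median difference of the members was 0.185 and that of all genes 0.0938, and differences spanned -1.02 to 1.27.

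**Figure D1:**
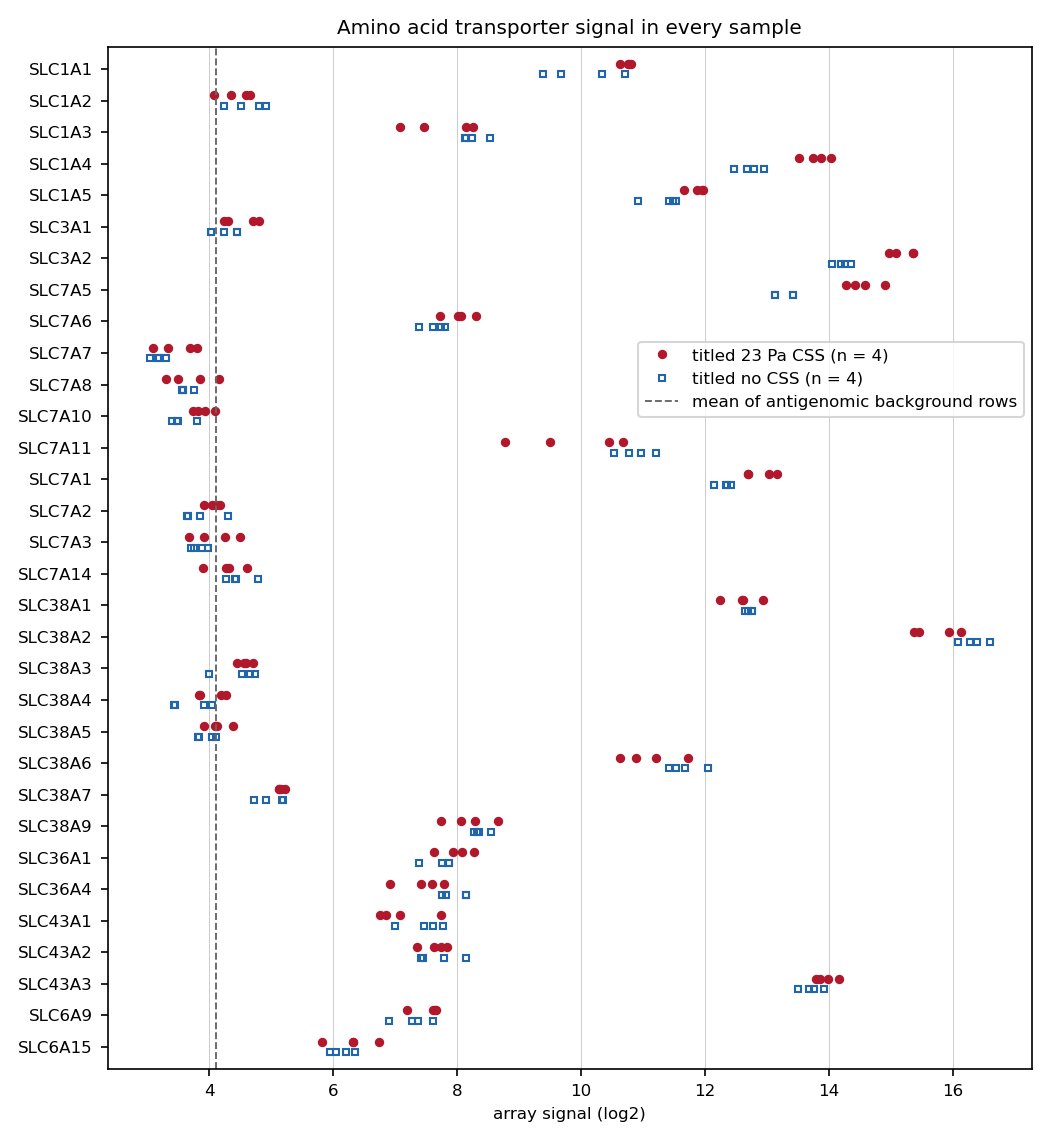
Array signal (log2) of the 32 transporters in each sample, with filled circles for the 4 samples titled 23 Pa CSS, open squares for the 4 titled no CSS, and a dashed line at the mean of the antigenomic background rows. Probes differ between genes, so that the genes are not ranked by level; 12 genes lie close to the dashed line.

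Signal of the members ranged widely. In 20 of them every sample exceeded its array's antigenomic mean by more than 1 log2 unit, a margin chosen here. All 10 members with an unadjusted p under 0.05 were among these 20 (50%, against 30.7% of all genes over background by the same rule). Of the 20, 15% rose and 0 fell, against 2.62% and 1.81% of such genes. Groups did not overlap for 25% of the 20 upward and 0 downward, against 14.5% and 8.01%. Levels of different genes come from different probes and are not ranked here. The other 12 members averaged between 3.33 and 5.08, and 0 of them had a limma p under 0.05, adjusted or not. Of those 12, 10 differences were positive (83.3%, against 62.5% of all genes). The median of the 12 was 0.184, beside 0.0938 over all genes and a shift of 0.144 in the antigenomic rows. The plot of signal in every sample shows these genes as a column around the background line.

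The pair that forms the leucine exchanger rose in both its chains. The light chain SLC7A5 (transcript cluster TC1600011186.hg.1) had 14.43, 14.91, 14.29 and 14.59 in the samples titled 23 Pa CSS, against 13.42, 13.13, 13.43 and 13.13 in those titled no CSS. Every sample titled 23 Pa CSS was thus above every sample titled no CSS. The means were 14.55 ± 0.266 under the 23 Pa title and 13.28 ± 0.17 under the no CSS title (SD, n = 4 each), a 2.42-fold rise with a difference of 1.27 (95% interval 0.871 to 1.68, limma adjusted p = 0.012). SLC7A5 kept this call under all 17 alternatives run, with adjusted p between 0.00306 and 0.0485.

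The heavy chain SLC3A2 (TC1100007884.hg.1) had 15.09, 15.36, 14.98 and 15.37 in the samples titled 23 Pa CSS, against 14.06, 14.21, 14.36 and 14.27 in those titled no CSS. The groups did not overlap here either, and the spread within each was small. Means of 15.20 ± 0.196 in samples titled 23 Pa CSS and 14.22 ± 0.127 in those titled no CSS (SD, n = 4 each) gave a difference of 0.98, a 1.97-fold rise (95% interval 0.61 to 1.34, limma adjusted p = 0.0194). The call was lost when titled no CSS replicate 2 or 4 or titled 23 Pa CSS replicate 4 was left out, with adjusted p of 0.0651, 0.0605 and 0.0616 and differences of 0.97, 0.99 and 0.92. Centring arrays on the hybridisation controls gave 0.55 (adjusted p = 0.116).

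The third gene that rose was SLC1A4 (TC0200007821.hg.1), which encodes ASCT1, an exchanger of serine, alanine, cysteine and threonine. It had 14.04, 13.87, 13.53 and 13.75 in the samples titled 23 Pa CSS, against 12.79, 12.69, 12.95 and 12.47 in those titled no CSS. Again no sample of one group reached the other. Its mean was 13.80 ± 0.215 in samples titled 23 Pa CSS and 12.72 ± 0.202 in those titled no CSS (SD, n = 4 each), which is 2.10-fold higher, with a difference of 1.07 (95% interval 0.679 to 1.47, limma adjusted p = 0.018). Leaving out titled no CSS replicate 2 or 4, or titled 23 Pa CSS replicate 1 or 4, ended the call, with adjusted p between 0.0505 and 0.0629 and differences between 0.99 and 1.09. Centring on the hybridisation controls gave 0.64 (adjusted p = 0.0651).

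**Figure D2:**
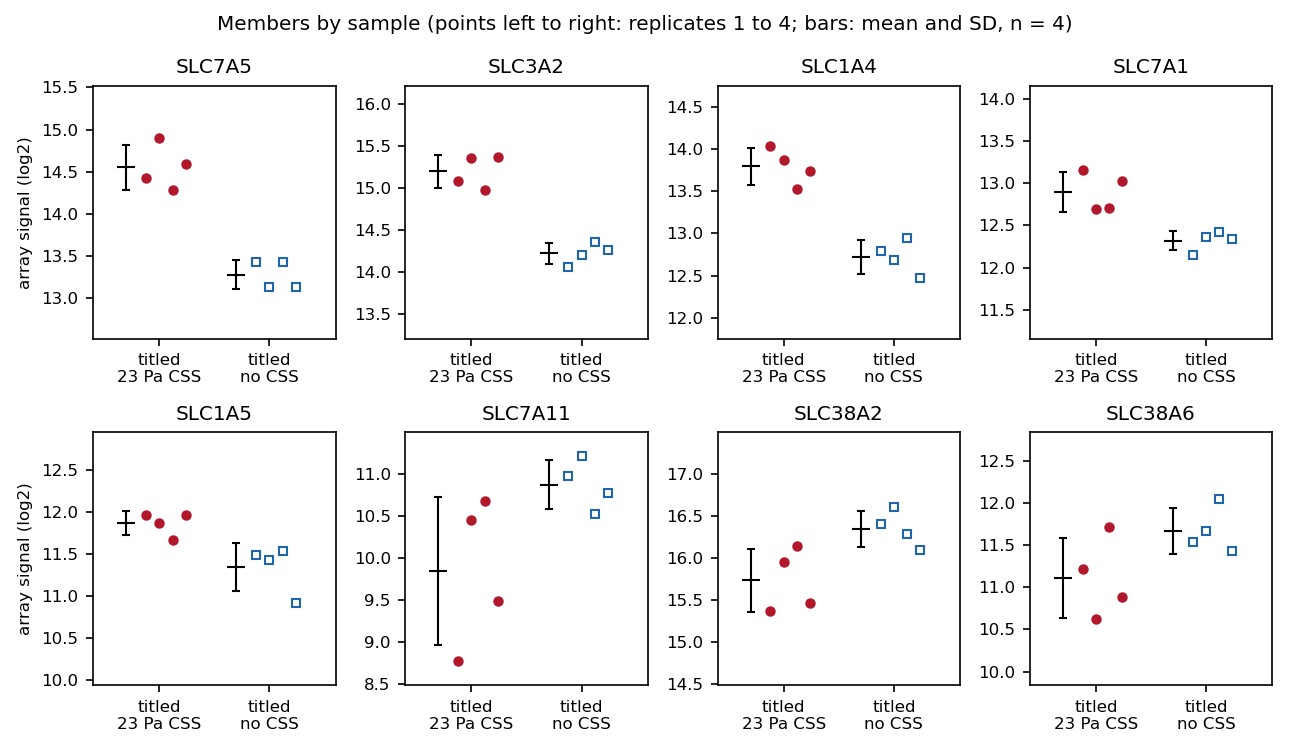
Array signal (log2) of 8 transporters by sample, with the samples titled 23 Pa CSS left and those titled no CSS right, replicates 1 to 4 from left to right in each, and the mean with its SD (n = 4) beside them. The groups are apart for SLC7A5, SLC3A2, SLC1A4, SLC7A1 and SLC1A5 and overlap for SLC7A11, SLC38A2 and SLC38A6. Each panel spans the same 3 log2 units.

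Upstream sequence of the 3 genes that rose is shown because it lets known motifs be read beside the values. RefSeq starts (GRCh38.p14) were available for 24 of the 32 members, with 45 windows of the 250 bases before a start. For each of the 3 genes the 1 window that held a motif is printed. Capitals mark the motif found on either strand. The SLC7A5 window, chr16:87869508-87869757 on the minus strand, holds CACGTG, the E-box read by MYC, which includes ACGTG, the core of the hypoxia response element, on both strands. The SLC3A2 window, chr11:62881449-62881698 on the plus strand, belongs to 1 of 3 starts and holds TGACNNNGC, the antioxidant response element read by NRF2. The SLC1A4 window, chr2:64988229-64988478 on the plus strand, belongs to 1 of 2 starts and holds ACGTG at 2 places.
SLC7A5: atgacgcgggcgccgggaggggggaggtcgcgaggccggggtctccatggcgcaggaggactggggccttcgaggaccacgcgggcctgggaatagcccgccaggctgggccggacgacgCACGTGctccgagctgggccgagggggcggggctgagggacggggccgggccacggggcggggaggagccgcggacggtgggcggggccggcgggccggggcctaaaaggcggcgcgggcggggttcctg
SLC3A2: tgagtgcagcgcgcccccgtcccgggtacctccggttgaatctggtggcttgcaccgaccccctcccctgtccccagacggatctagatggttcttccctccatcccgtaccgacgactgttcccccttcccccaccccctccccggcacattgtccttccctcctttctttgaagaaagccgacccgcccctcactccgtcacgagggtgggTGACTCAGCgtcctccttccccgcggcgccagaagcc
SLC1A4: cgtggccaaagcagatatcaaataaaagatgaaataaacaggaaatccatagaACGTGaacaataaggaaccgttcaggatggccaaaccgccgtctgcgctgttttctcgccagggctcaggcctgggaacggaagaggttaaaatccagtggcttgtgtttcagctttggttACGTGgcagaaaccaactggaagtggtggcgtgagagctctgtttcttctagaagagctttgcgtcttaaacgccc

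Counting bases back from the start, the E-box of SLC7A5 begins at -130, the NRF2 motif of SLC3A2 at -37, and the ACGTG matches of SLC1A4 at -197 and -76. The other windows of SLC3A2 and SLC1A4 held none of the 5 motifs searched on both strands. Over all 35116 RefSeq windows, CACGTG was present in 6.34%, ACGTG in 18.5% and TGACNNNGC in 10.9%. Of the 45 windows of members, several of which belong to the same gene, 7 held CACGTG, 14 held ACGTG (which counts every CACGTG too) and 6 held TGACNNNGC. TGATGNAAN, the amino acid response element read by ATF4, was found in 3.13% of all windows and in those of SLC1A3 and SLC1A5 only among the members. CATTCC, read by TEAD factors, was found in 11.9% of all windows and in 5 of the 45, none of them of the 3 genes that rose. A match describes letters in a window and no more.

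Besides SLC7A5, the light chains that pair with SLC3A2 gave 0 calls among 5. SLC7A11, the cystine and glutamate exchanger, had 8.78, 10.45, 10.68 and 9.49 in the samples titled 23 Pa CSS, against 10.97, 11.21, 10.53 and 10.78 in those titled no CSS. Replicates 1, 2 and 4 of the samples titled 23 Pa CSS lay below every sample titled no CSS, replicate 2 by little, while replicate 3 lay within their range. Means were 9.85 ± 0.881 in samples titled 23 Pa CSS and 10.87 ± 0.289 in those titled no CSS (SD, n = 4 each), a difference of -1.02, the lowest among the members, which did not pass (95% interval -1.83 to -0.218, limma adjusted p = 0.19). Without titled 23 Pa CSS replicate 1 the difference was -0.67. The SD was larger under the 23 Pa title, and the fit assumes an equal spread. SLC7A6, an exchanger of cationic for neutral amino acids, had 8.02, 7.73, 8.07 and 8.30 in the samples titled 23 Pa CSS, against 7.62, 7.39, 7.74 and 7.80 in those titled no CSS. The 2 groups overlapped, and the difference of 0.39 did not pass (95% interval -0.0036 to 0.784, limma adjusted p = 0.317).

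The other light chains, SLC7A7 for cationic, SLC7A8 for large neutral and SLC7A10 for small neutral amino acids, averaged 3.48, 3.70 and 3.89 in samples titled 23 Pa CSS. In samples titled no CSS they averaged 3.17, 3.62 and 3.54. All these means lay under the antigenomic mean. The heavy chain SLC3A1, known as the partner of a renal cystine transporter, averaged 4.51 in samples titled 23 Pa CSS and 4.29 in those titled no CSS. No level can be given for these genes beyond that they were near background.

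Within each sample, the log2 signal of SLC3A2 minus that of a light chain does not depend on how arrays are scaled by a constant. SLC3A2 was known to differ before these were computed. For SLC7A5 this value was 0.66, 0.45, 0.69 and 0.78 in the samples titled 23 Pa CSS, against 0.63, 1.08, 0.93 and 1.14 in those titled no CSS. The groups overlapped, and the change of -0.298 did not pass (exact permutation p = 0.114, Benjamini-Hochberg adjusted over 6 light chains p = 0.114). For SLC7A11 it was 6.31, 4.91, 4.30 and 5.87 in the samples titled 23 Pa CSS, against 3.08, 3.00, 3.83 and 3.49 in those titled no CSS. The heavy chain therefore changed by 2.00 more than SLC7A11 (exact permutation p = 0.0286, adjusted p = 0.0343), with no overlap between groups. For SLC7A6 the change was 0.585 (exact permutation p = 0.0286, adjusted p = 0.0343). The other 3 light chains, near background, gave 0.625 to 0.891 with the same p, which restates the change of SLC3A2 itself. Their p entered the adjustment over 6, so that the adjusted p of SLC7A11 and SLC7A6 leans on them. On quantile-normalized arrays the value for SLC7A6 was 0.348 (exact permutation p = 0.0857, adjusted p = 0.103). SLC7A6 also missed the threshold without titled 23 Pa CSS replicate 2 (0.431, exact permutation adjusted p = 0.0686). Leaving out a single sample titled no CSS left 0 of the 6 past the threshold, with adjusted p of 0.0571 or more. With fewer samples the exact test allows only coarse steps of p. In these settings the groups stayed apart for SLC7A11 (1.88 to 2.16) and SLC7A6 (0.537 to 0.663), at an exact permutation p of 0.0286 or 0.0571.

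**Figure D3:**
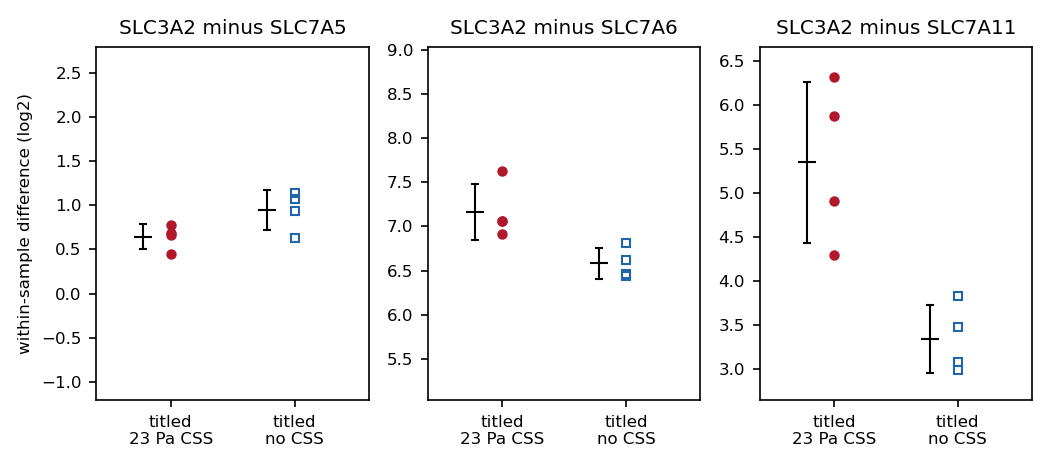
Within-sample log2 signal of the heavy chain SLC3A2 minus that of 3 light chains, for the samples titled 23 Pa CSS (left in each panel) and titled no CSS (right), with the mean and SD (n = 4) beside the points. Panels span the same 4 log2 units and their zero has no meaning, since the probes differ. Groups overlap for SLC7A5 and are apart for SLC7A6 and SLC7A11.

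Among the other SLC1 genes, SLC1A5 encodes ASCT2, a main route of glutamine into tumour cells. It had 11.96, 11.87, 11.67 and 11.97 in the samples titled 23 Pa CSS, against 11.49, 11.43, 11.54 and 10.92 in those titled no CSS. The groups did not overlap, although SLC1A5 missed the threshold with a difference of 0.52 (95% interval 0.115 to 0.925, limma adjusted p = 0.185). The neuronal-type glutamate transporter SLC1A1 (EAAC1) had 10.76, 10.64, 10.77 and 10.80 in the samples titled 23 Pa CSS, against 10.71, 10.35, 9.68 and 9.38 in those titled no CSS. Here the spread lay in the samples titled no CSS (SD 0.0721 in those titled 23 Pa CSS against 0.609), and the difference of 0.71 did not pass (limma adjusted p = 0.208). SLC1A3 (GLAST), the astrocytic glutamate transporter, averaged 7.74 ± 0.56 in samples titled 23 Pa CSS and 8.26 ± 0.186 in those titled no CSS (SD, n = 4 each), a difference of -0.52 (limma adjusted p = 0.36). SLC1A2 (GLT-1), which clears most glutamate in brain, averaged 4.42 in samples titled 23 Pa CSS and 4.61 in those titled no CSS, near background.

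Cationic amino acids enter cells mainly through SLC7A1 (CAT-1). This gene had 13.16, 12.70, 12.71 and 13.03 in the samples titled 23 Pa CSS, against 12.15, 12.36, 12.42 and 12.34 in those titled no CSS. Every sample titled 23 Pa CSS lay above the others, but the difference of 0.58 did not pass (95% interval 0.205 to 0.958, limma adjusted p = 0.112). Its relatives SLC7A2 and SLC7A3, also cationic carriers, and SLC7A14, a relative found on lysosomes, averaged 3.83 to 4.48 in either group.

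The SLC38 family of sodium-coupled neutral amino acid transporters gave 0 calls among 8 genes, with a median difference of -0.0117. SLC38A2 (SNAT2), a glutamine and alanine carrier induced by amino acid shortage, had 15.37, 15.95, 16.14 and 15.46 in the samples titled 23 Pa CSS, against 16.40, 16.60, 16.29 and 16.09 in those titled no CSS. Replicate 3 of the samples titled 23 Pa CSS overlapped the lowest sample titled no CSS, and the difference of -0.62 did not pass (95% interval -1.08 to -0.149, limma adjusted p = 0.173). The orphan SLC38A6 had 11.21, 10.63, 11.72 and 10.89 in the samples titled 23 Pa CSS, against 11.53, 11.67, 12.05 and 11.43 in those titled no CSS. The difference was -0.56 with overlapping groups (limma adjusted p = 0.288). SLC38A1 (SNAT1), another glutamine carrier, averaged 12.60 ± 0.288 in samples titled 23 Pa CSS and 12.72 ± 0.0549 in those titled no CSS (SD, n = 4 each, difference -0.12, 95% interval -0.515 to 0.269, limma adjusted p = 0.808).

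SLC38A9, the lysosomal arginine sensor of mTORC1, averaged 8.19 ± 0.384 in samples titled 23 Pa CSS and 8.38 ± 0.124 in those titled no CSS (SD, n = 4 each), a difference of -0.19 (limma adjusted p = 0.725). Its other 2 rows differed by 0.20 (adjusted p = 0.696) and -0.91 (adjusted p = 0.218), so that the rows of this gene disagreed in sign and none passed. SLC38A7, a lysosomal glutamine exporter, differed by 0.16 near background. SLC38A3, SLC38A4 and SLC38A5 averaged between 3.71 and 4.58 in either group.

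Of the proton-coupled SLC36 carriers, SLC36A4 had 6.91, 7.43, 7.59 and 7.80 in the samples titled 23 Pa CSS, against 7.75, 8.14, 8.15 and 7.82 in those titled no CSS. Of the samples titled 23 Pa CSS, replicate 4 alone reached the range of those titled no CSS, and the difference of -0.53 did not pass (limma adjusted p = 0.243). SLC36A1, which acts on lysosomes, differed by 0.26 (adjusted p = 0.577). Among the SLC43 genes, the leucine carriers SLC43A1 (LAT3) and SLC43A2 (LAT4) differed by -0.35 and -0.06 (limma adjusted p = 0.553 and 0.93). SLC43A3, which is known to carry purine bases, averaged 13.96 ± 0.161 in samples titled 23 Pa CSS and 13.72 ± 0.175 in those titled no CSS (SD, n = 4 each, adjusted p = 0.543). The glycine transporter SLC6A9 (GlyT1) and the branched-chain and proline transporter SLC6A15 differed by 0.24 and 0.17 (limma adjusted p = 0.618 and 0.764).

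**Figure D4:**
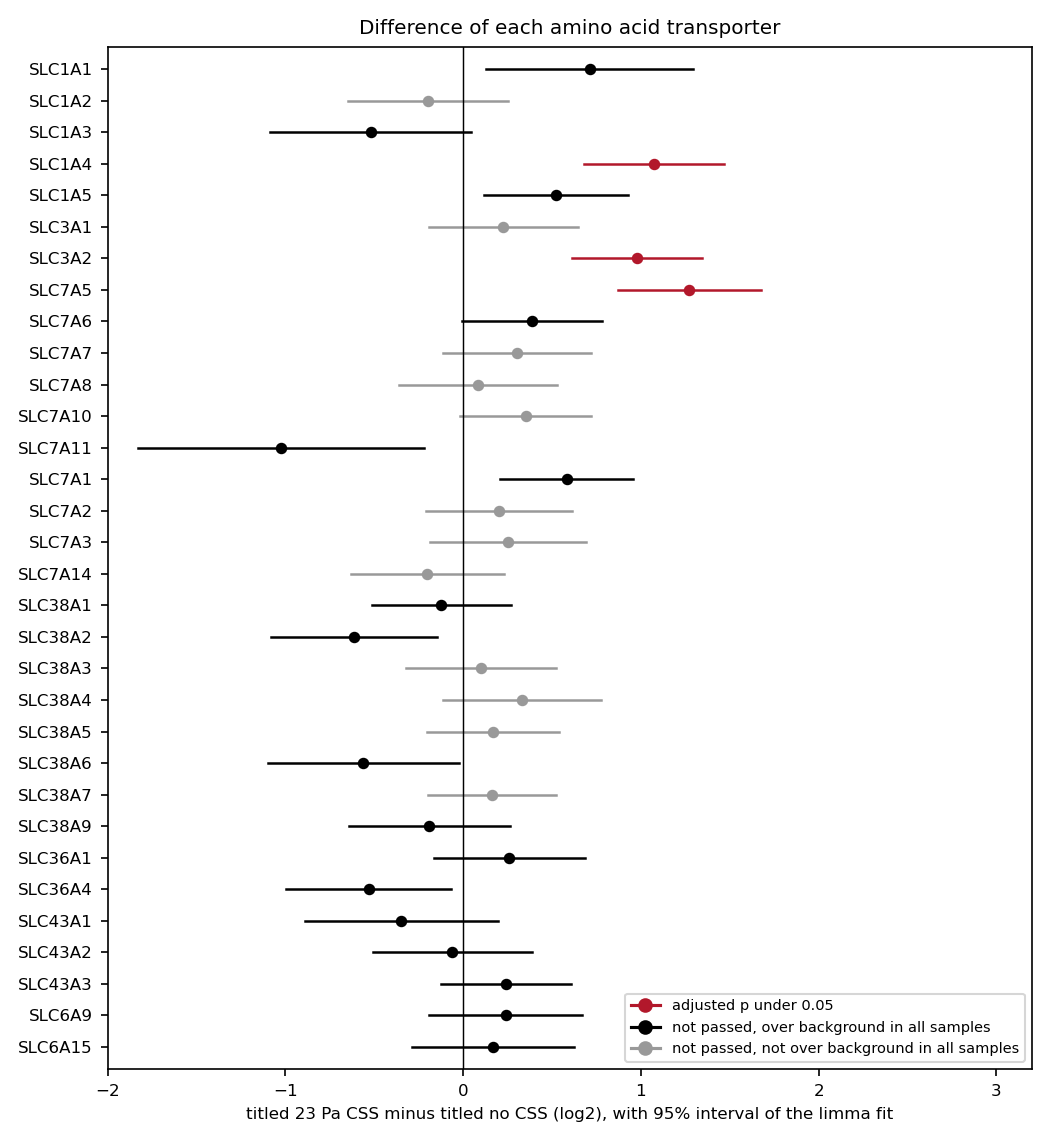
Difference of each transporter (log2, 23 Pa title minus no CSS title), with the 95% interval of the limma fit. Red marks the 3 genes with an adjusted p under 0.05, black the others over background in every sample, and grey the 12 that were not. SLC7A11 lies farthest left and SLC7A5 farthest right.

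The SD was larger in the samples titled 23 Pa CSS in 21 of the 32 members (65.6%) and in 55.5% of all genes, and spread was not tested. Over the 20 members above background, the median deviation from the no CSS title's mean was 0.281, 0.12, 0.067 and 0.256 in titled 23 Pa CSS replicates 1 to 4. In the samples titled no CSS it lay between -0.0638 and 0.12. Over all genes the same median was 0.145, 0.0548, 0.043 and 0.103 in the samples titled 23 Pa CSS. Replicate 3 of the samples titled 23 Pa CSS thus had the smallest shift by both measures, which are signed medians and not distances.

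Quantile normalization and centring on the median transcript cluster left the same 3 members past the threshold (highest adjusted p = 0.0279). On arrays centred instead on the hybridisation controls, SLC7A5 alone of the 3 stayed higher (0.84, limma adjusted p = 0.0252), and 5 members were lower: SLC7A11 (-1.45), SLC38A2 (-1.05), SLC38A6 (-0.99), SLC36A4 (-0.96) and SLC1A3 (-0.95), with adjusted p between 0.0199 and 0.0383. This scaling moves the median difference of all genes to -0.336, against 0.0938 as deposited. Relative to that median, SLC7A11 stood no lower than before, since centring moves every gene by the same amount. Of all genes, 128 were higher and 2897 lower on arrays so centred, and 662 and 235 after quantile normalization, against 455 and 322 as deposited.

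**Figure D5:**
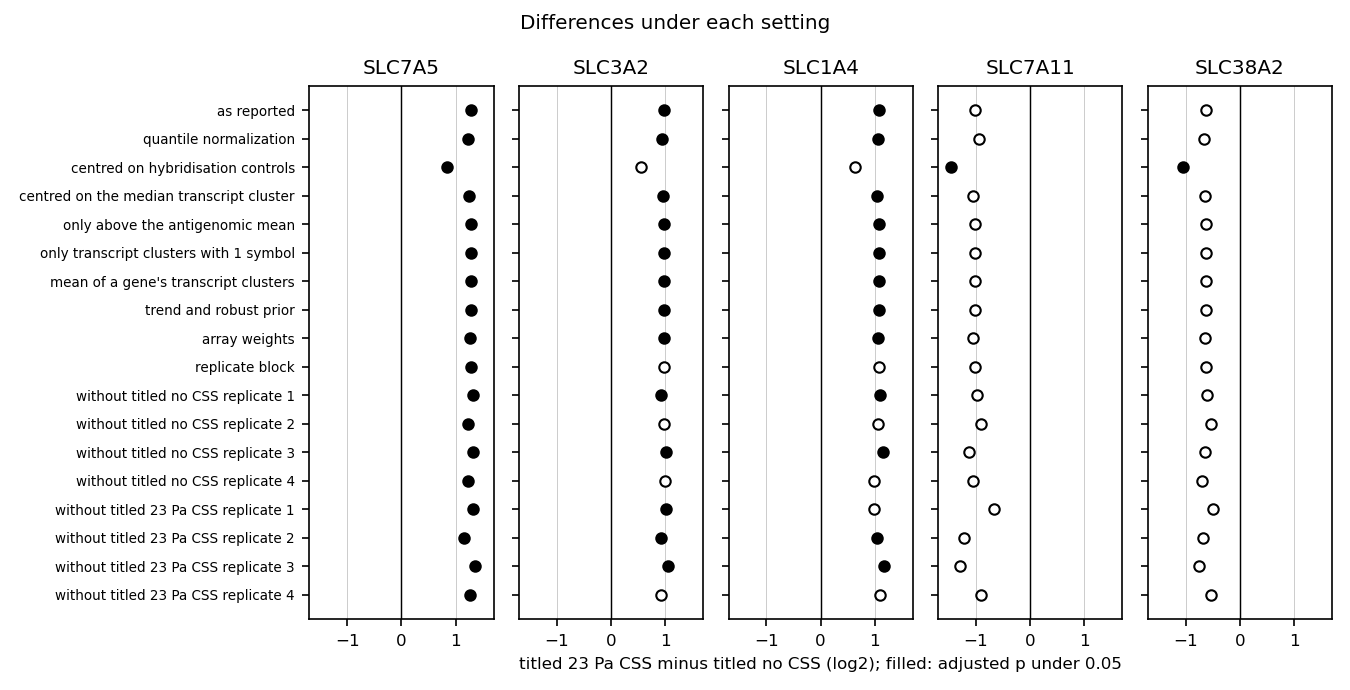
Differences (log2, 23 Pa title minus no CSS title) of 5 transporters as reported and under 17 alternatives, filled where the adjusted p is under 0.05. SLC7A5 is filled throughout, SLC3A2 and SLC1A4 in part, and SLC7A11 and SLC38A2 only on arrays centred on the hybridisation controls.

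Other genes of amino acid transport and use were read from lists. Beside their counts before adjustment stand 19.3% of all genes with p under 0.05, and 30.7% of genes over background in all samples. Beside their calls stand 1.36% of all genes that rose and 0.962% that fell. Among genes over background these shares were 2.62% and 1.81%. Median differences were 0.0938 over all genes and 0.108 over those above background. Of 19 further plasma membrane carriers, 1 rose: SLC6A6, the taurine transporter, with 13.37, 12.84, 12.90 and 12.96 in the samples titled 23 Pa CSS, against 11.84, 12.01, 11.85 and 11.18 in those titled no CSS. Its groups lay apart by a difference of 1.30 (limma adjusted p = 0.0177), and the call was lost only without titled 23 Pa CSS replicate 4 (adjusted p = 0.0525) among the 17 alternatives. Of these 19 genes 15 lay within 1 log2 unit of the antigenomic mean or under it, and the median difference of the list was 0.0888. Of 16 measured carriers of organelles, 1 rose, the lysosomal cysteine importer MFSD12, at 13.25 ± 0.0661 in samples titled 23 Pa CSS and 12.18 ± 0.27 in those titled no CSS (SD, n = 4 each, difference 1.07, limma adjusted p = 0.0174). Before adjustment, 6 of the 16 had p under 0.05, of which 5 were higher (MFSD12 among them) and 1, the mitochondrial aspartate and glutamate carrier SLC25A13, was lower (-0.58, limma adjusted p = 0.0723). MFSD12 missed the threshold when titled no CSS replicate 2 or 4 or titled 23 Pa CSS replicate 4 was left out, and on arrays centred on the hybridisation controls (highest adjusted p = 0.0622).

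Among 32 measured genes of amino acid sensing by mTORC1, 0 passed in limma, and 8 had p under 0.05 before adjustment, 7 higher and 1 lower (median difference 0.254). All 32 averaged more than 1 log2 unit over the antigenomic mean. Of all genes over background in every sample, 30.7% had such a p, with a median difference of 0.108. RRAGA and RRAGD, GTPases that place mTORC1 on lysosomes, differed by 0.84 and 0.78 (limma adjusted p = 0.0503 and 0.0598). Of 26 genes of the eIF2 kinases and the ATF4 response, 1 rose, the lipoprotein receptor VLDLR (1.40, limma adjusted p = 0.0201), and the median was 0.22. Before adjustment 4 of the 26 had p under 0.05, 4 higher (VLDLR among them) and 0 lower. VLDLR missed the threshold when one of these same 3 samples was left out (highest adjusted p = 0.0705). ATF4 itself averaged 12.85 ± 0.144 in samples titled 23 Pa CSS and 12.63 ± 0.27 in those titled no CSS (SD, n = 4 each, difference 0.22, limma adjusted p = 0.625).

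Enzymes that use the carried amino acids were read in the same way. Of 11 measured genes of glutamine and glutamate use, 0 passed in limma, 3 had p under 0.05 before adjustment (2 higher, 1 lower), and the median was -0.0165. The asparagine synthetase ASNS and the proline pathway enzyme ALDH18A1 differed by 0.65 and 0.45 (limma adjusted p = 0.175 and 0.227). Both were also counted as higher in the list of eIF2 kinases and the ATF4 response. Some genes stand in more than 1 list, so that counts of different lists are not all separate. Of 14 genes of cysteine and glutathione, 1 rose, the lipid peroxide-reducing enzyme GPX4 (0.83, limma adjusted p = 0.0413, median of the list 0.216). Before adjustment 3 of the 14 had p under 0.05, 2 higher and 1 lower. The higher ones were GPX4 and CDO1, which averaged under the antigenomic mean, and the lower one was CSAD (-0.70, limma adjusted p = 0.243). GPX4 lost its call under 9 of the 17 alternatives, among them the omission of any 1 sample other than titled 23 Pa CSS replicate 3. Of 12 branched-chain amino acid enzymes, 0 passed in limma and 6 had p under 0.05 before adjustment, with a median of -0.222. Of these 6, 3 were higher and 3 lower. Subunits of the branched-chain dehydrogenase complex differed in sign without passing: BCKDHB, DLD and DBT by -0.57, -0.61 and -0.69 and BCKDHA by 0.77 (limma adjusted p = 0.111, 0.148, 0.177 and 0.269). BCKDHA had 6.86 in titled no CSS replicate 4, against 8.16, 8.43 and 8.57 in replicates 1 to 3 of that title. Of 17 measured cytosolic aminoacyl-tRNA synthetases, 0 passed in limma and 6 had p under 0.05 before adjustment, 4 higher and 2 lower (median 0.0864). Of the higher ones, AARS1 and FARSA differed by 0.60 and 0.54 (adjusted p = 0.104 and 0.129), and the lower ones, TARS1 and EPRS1, by -0.56 and -0.75 (limma adjusted p = 0.181 and 0.281).

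Of 16 reported regulators of these transporters, 2 rose, where 1.36% of all genes and 2.62% of those over background did. The median of the 16 was 0.378, against 0.0938 and 0.108. Before adjustment 6 had p under 0.05, 5 higher and 1 (NFE2L2) lower. EPAS1, the HIF-2 alpha subunit of the hypoxia response, had 8.80, 8.30, 8.76 and 8.35 in the samples titled 23 Pa CSS, against 7.09, 7.35, 7.20 and 6.61 in those titled no CSS. Its difference of 1.49 (limma adjusted p = 0.011) passed under all 17 alternatives. MYC differed by 0.93 (adjusted p = 0.0477) and lost its call under 11 of 17 alternatives, with any 1 sample left out among them. NFE2L2, which encodes NRF2, differed by -0.63 and did not pass (adjusted p = 0.221). The search for copies and antisense genes of the members found rows for 3 of 13 symbols. SLC7A5P1, a pseudogene of SLC7A5, averaged 7.25 ± 0.295 in samples titled 23 Pa CSS and 7.23 ± 0.0937 in those titled no CSS (SD, n = 4 each, difference 0.02, limma adjusted p = 0.977). SLC7A11-AS1 differed by -0.15 near background (adjusted p = 0.861). SLC6A10P, which is a copy of the creatine transporter SLC6A8 and thus of no member, rose by 1.45 (limma adjusted p = 0.00934). Probe sequences were not used here, and signal shared between near-identical copies was not tested.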

How the data were processed

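The authors deposited log2 array signal for 138745 rows and 8 samples, made with Transcriptome Analysis Console per the submitters' processing notes. Version, summarisation, normalization and build are not given in the sources used here. The Human Transcriptome Array 2.0 is named in the series' design, but the transcript cluster identifiers match the annotation of another array of that maker, so no file coordinates are given. Depth does not apply, and the number of arrays limits the precision. After 2995 control rows were removed, 135750 transcript clusters entered limma 3.58.1 in R 4.3.3 (lmFit, eBayes, two-sided) without a signal filter or covariate. Of them 36176 had 1 gene symbol, 1119 several and 98455 none. Symbols were updated through a RefSeq gene table (25516 by Entrez identifier, 9899 by symbol, 623 by synonym, 138 unmatched). Exact permutation tests ran over all 70 assignments. The procedure was tested on simulated data.

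Members and gene lists were chosen with earlier results of these data known. All members are described; a list names its genes past the threshold, or else at most 2 with the smallest p, and any further gene was chosen after its values were seen. Promoters are RefSeq's (GRCh38.p14). Same-numbered samples of the 2 titles were not treated as pairs: their deviations from the group means correlated at -0.0277, -0.0445, -0.0711 and -0.0634 over genes. Alternatives covered scaling, a signal filter, the tested rows, the prior, array weights, a replicate block and each sample left out.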

Additional observations from a re-analysis of the deposited data

Results flagged for a closer look

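Among 64 sets of 4 samples (32 members, 2 titles), 2 had a sample whose gap to its neighbour, as a share of the whole range, exceeded the 95% critical value of Dixon's test; chance flags about 1 set in 20. SLC6A9 was 7.20 in titled 23 Pa CSS replicate 2, against 7.62 in the next of that group. SLC7A8 was 3.75 in titled no CSS replicate 2, against 3.58 in the next, and lay under the antigenomic mean. The causes were not tested.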

How the results depend on the processing

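Each of the 32 member differences was recomputed under 17 alternatives, which gave 537 values, because 7 dim members dropped out of the fit above the antigenomic mean. No called member changed sign, 11 values lost and 5 gained a call, and 22 values of uncalled members moved by more than the larger group SD, all of them on arrays centred on the hybridisation controls. That scaling turned the sign of 15 uncalled members. Quantile normalization turned 1, leaving out titled no CSS replicate 2 turned 2, and leaving out titled 23 Pa CSS replicate 1 or 3 turned 1 each. Members past the threshold numbered 3 as reported, 6 on arrays so centred (1 higher, 5 lower), 1 with a replicate block and 1 to 3 with 1 sample left out: 1 without titled no CSS replicate 2 or 4 or titled 23 Pa CSS replicate 4, 2 without titled 23 Pa CSS replicate 1. Transcript clusters past the threshold numbered 2727 as reported, 15138 on arrays so centred, 1744 among those with 1 symbol (fewer tested), 1329 with a replicate block and 411 to 5360 with 1 sample left out. Of 6 heavy chain ratios, 5 passed as reported, 3 of them with light chains near background, and 0 to 5 with 1 sample left out. With a replicate block 0 passed, since the smallest p of the paired exact test, 0.125, cannot pass. With the block SLC7A5 kept its call (adjusted p = 0.0435), and SLC3A2 and SLC1A4 had adjusted p of 0.0564 and 0.0516, which says nothing of their size, since the numbers do not pair the samples. The alternatives for list genes were chosen after seeing the data. The causes were not tested. For genes near the antigenomic mean, a difference cannot be told apart from the shift of the antigenomic rows between the titles.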
